A study of Homo sapiens with 11 samples.

Results

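CXCL12, the chemokine also known as stromal cell-derived factor 1, was examined together with its receptors CXCR4 and ACKR3 in T47D cells, a human line derived from breast carcinoma whose cells carry estrogen receptor. The 3 genes, of 19775 named on the array, were represented by 8 of the 54613 probe sets analysed: 2 for CXCL12, 3 for CXCR4 and 3 for ACKR3. Every probe set annotated to exactly 1 of these symbols was taken. CXCL12 was chosen from its rise after E2-BSA and estradiol in earlier results of these same arrays, so its values in those comparisons are described here without a test. CXCR4 and ACKR3 were included as its receptors.

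All cells were unmodified T47D that spent 4 h in 10% stripped serum before a 3 h treatment, under 1 of 9 conditions, with 1 total RNA sample per HG-U133 Plus 2 array and 11 arrays in all. The conditions were no addition (control, 2 arrays), E2-BSA, which is estradiol coupled to bovine serum albumin, at 1 µM (2 arrays), and, with 1 array each, estradiol at 1 µM, its vehicle ethanol at 0.1%, the carrier BSA at 1 µM, ICI at 10 µM, G15 at 10 µM, and E2-BSA at 1 µM with either ICI or G15 at 10 µM. Both of the last agents are labelled antagonists. The compound G15 blocks the membrane estrogen receptor GPER1, which couples to G proteins. The other agent is given only as ICI. Whether the paired arrays of control and of E2-BSA stem from separate cultures is not stated, so the spread between them may be technical. In the fit over all 11 arrays, p-values rest on that spread and on a variance pooled over probe sets (1 residual and 11.3 prior degrees of freedom). Conditions with 1 array have no measured spread of their own there.

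CXCL12 is secreted and acts through CXCR4, a receptor coupled to inhibitory G proteins that directs cell migration and supports survival. ACKR3 also binds CXCL12 with high affinity, but it signals through arrestins and takes the chemokine into the cell, which lowers the amount outside. In breast tissue CXCL12 comes mainly from stromal fibroblasts, and estrogen receptor-positive carcinoma cells also transcribe it in response to estrogen.

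The promoters of the ligand and of CXCR4 are shown because the ligand transcript moved with estrogen in these arrays while CXCR4 passed no test. The RefSeq promoter sequences used here (GRCh38.p14) held entries for 2 of the 3 genes and none for ACKR3. Each sequence is the 250 bases before the outermost annotated start, 5′ to 3′ on the gene's own strand. For CXCL12 this is chr10:44385098-44385347, minus strand, upstream of a gene at chromosome 10, 44370165 to 44385097. For CXCR4 it is chr2:136118150-136118399, minus strand, upstream of a gene at chromosome 2, 136114349 to 136118149. ACKR3 lies on chromosome 2, 236537122 to 236582354. Capitals mark matches, on either strand, to AGGTCA, the repeat unit of the estrogen response element, to its core GGTCA, to the GC box GGGCGG and to the TATA box TATAAA.
CXCL12 promoter: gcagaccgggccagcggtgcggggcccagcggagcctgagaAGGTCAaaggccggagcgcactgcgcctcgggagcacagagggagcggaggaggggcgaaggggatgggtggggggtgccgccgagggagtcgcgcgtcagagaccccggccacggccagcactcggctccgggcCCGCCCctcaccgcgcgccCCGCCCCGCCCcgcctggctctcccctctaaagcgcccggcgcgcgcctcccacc
CXCR4 promoter: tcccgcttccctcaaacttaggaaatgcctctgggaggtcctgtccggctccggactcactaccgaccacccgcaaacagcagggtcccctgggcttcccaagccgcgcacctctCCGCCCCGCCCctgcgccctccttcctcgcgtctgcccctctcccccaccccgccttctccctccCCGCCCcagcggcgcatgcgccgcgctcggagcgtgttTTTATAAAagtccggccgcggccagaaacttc

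The CXCL12 promoter held 1 match to AGGTCA, from base 209 to base 204 before the start, a hexamer present in 12.1% of the 35116 RefSeq promoter windows of this length. CXCR4 held no match to AGGTCA or to GGTCA, which contains 5 of those letters and was present in 32.6% of windows. Neither window held the full palindrome, in which GGTCA faces its reverse complement across 3 bases, found in 0.0399% of windows. Both held 3 matches to GGGCGG (42.6% of windows), and in each promoter 2 of them overlapped by 1 base. CXCR4 alone of the pair had TATAAA matches, 2 overlapping ones from base 32 to base 25 on opposite strands (10.7% of windows). ACGTG, the core of the hypoxia response element, was in neither window (18.5% of windows). A match describes letters in this window and not a bound site.

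The deposited values were centred per probe set, so they show differences between arrays and no expression level, and probe sets cannot be ranked against each other by abundance. They were read as log2, and each fold below depends on that reading. For the same reason the luminal identity of the cells could not be checked from the levels of keratin or other epithelial markers. The arrays fell into 2 sets, and only control and E2-BSA had arrays in both. Estradiol was in the smaller set alone, without an ethanol array beside it, so control 1 is its only reference there. The remaining conditions were in the larger set alone. The smaller set held estradiol and the first arrays of control and E2-BSA, with correlations of 0.824 to 0.865 between arrays, and the other 8 arrays a larger set, with 0.160 to 0.466, against -0.583 to -0.330 between the sets. Differences between single arrays were therefore taken within a set, and the model carried the set as a block. For a condition in 1 set, its fitted difference from control or E2-BSA draws on the control and E2-BSA arrays of both sets. It can therefore depart from the difference within the set. ICI minus control at CXCL12 203666_at, for example, was -0.45 fitted and -0.78 within the set.

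CXCL12 was higher on every array from cells given E2-BSA or estradiol than on every array of the same set from cells given neither. At probe set 203666_at the smaller set read -1.65 on control 1, 1.17 on E2-BSA 1 and 1.31 on estradiol. In the larger set the 5 arrays without E2-BSA read 0.0039 (control 2), -0.22 (ethanol), -0.0039 (BSA), -0.78 (ICI) and -0.0067 (G15). The 3 arrays with E2-BSA read 1.50 alone, 0.69 with ICI and 1.50 with G15. Arrays with and without hormone did not overlap in the larger set. The smaller set held 2 arrays with hormone and 1 without, so non-overlap there carries little weight. The share of all probe sets with that order in the smaller set was not counted. In the larger set 3.16% of all probe sets had every array with E2-BSA above every array without it, and CXCL12 was chosen for being of this kind.

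Within its set, 203666_at differed by 2.82 between E2-BSA 1 and control 1, a 7.07-fold difference, and by 2.96 between estradiol and control 1, or 7.79-fold. Each was the highest difference of all 54613 probe sets in its pair of arrays, but both pairs share control 1. E2-BSA 2 exceeded control 2 by 1.49 (2.82-fold), which ranked 8 of all probe sets, and exceeded BSA by 1.50. At 209687_at the ranks were 44 for E2-BSA 1, 29 for estradiol and 33 for E2-BSA 2. CXCL12 was chosen for this rise, so the ranks are description only. The values that follow are again those of 203666_at. The smaller set thus gave the wider difference, and most of the gap lay in the controls. Control 1 minus control 2 was -1.66, while E2-BSA 1 minus E2-BSA 2 was -0.33. Among the 206 other probe sets called higher after E2-BSA, the median difference was 0.93 in the smaller set and 0.70 in the larger, on the arrays that picked them.

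The second CXCL12 probe set, 209687_at, gave the same order with narrower steps. It read -0.61 on control 1, 0.75 on E2-BSA 1 and 0.94 on estradiol. In the larger set it read between -0.49 (ICI) and -0.0079 (G15) without E2-BSA and with it 1.002 on E2-BSA 2, 0.56 on the combination with ICI and 1.09 on that with G15. After removal of each set's mean, the 2 probe sets had a Pearson r of 0.98 over the 11 arrays, given as a description. The fitted E2-BSA effect over both sets was 2.16 ± 0.22 (SE) at 203666_at and 1.21 ± 0.13 at 209687_at, and that of estradiol 2.63 ± 0.30 and 1.48 ± 0.17. After quantile normalization the estradiol values were 1.74 and 0.99. Averaged over control, ICI and G15 backgrounds, the E2-BSA effect was 1.82 ± 0.21 and 1.15 ± 0.08.

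**Figure D1:**
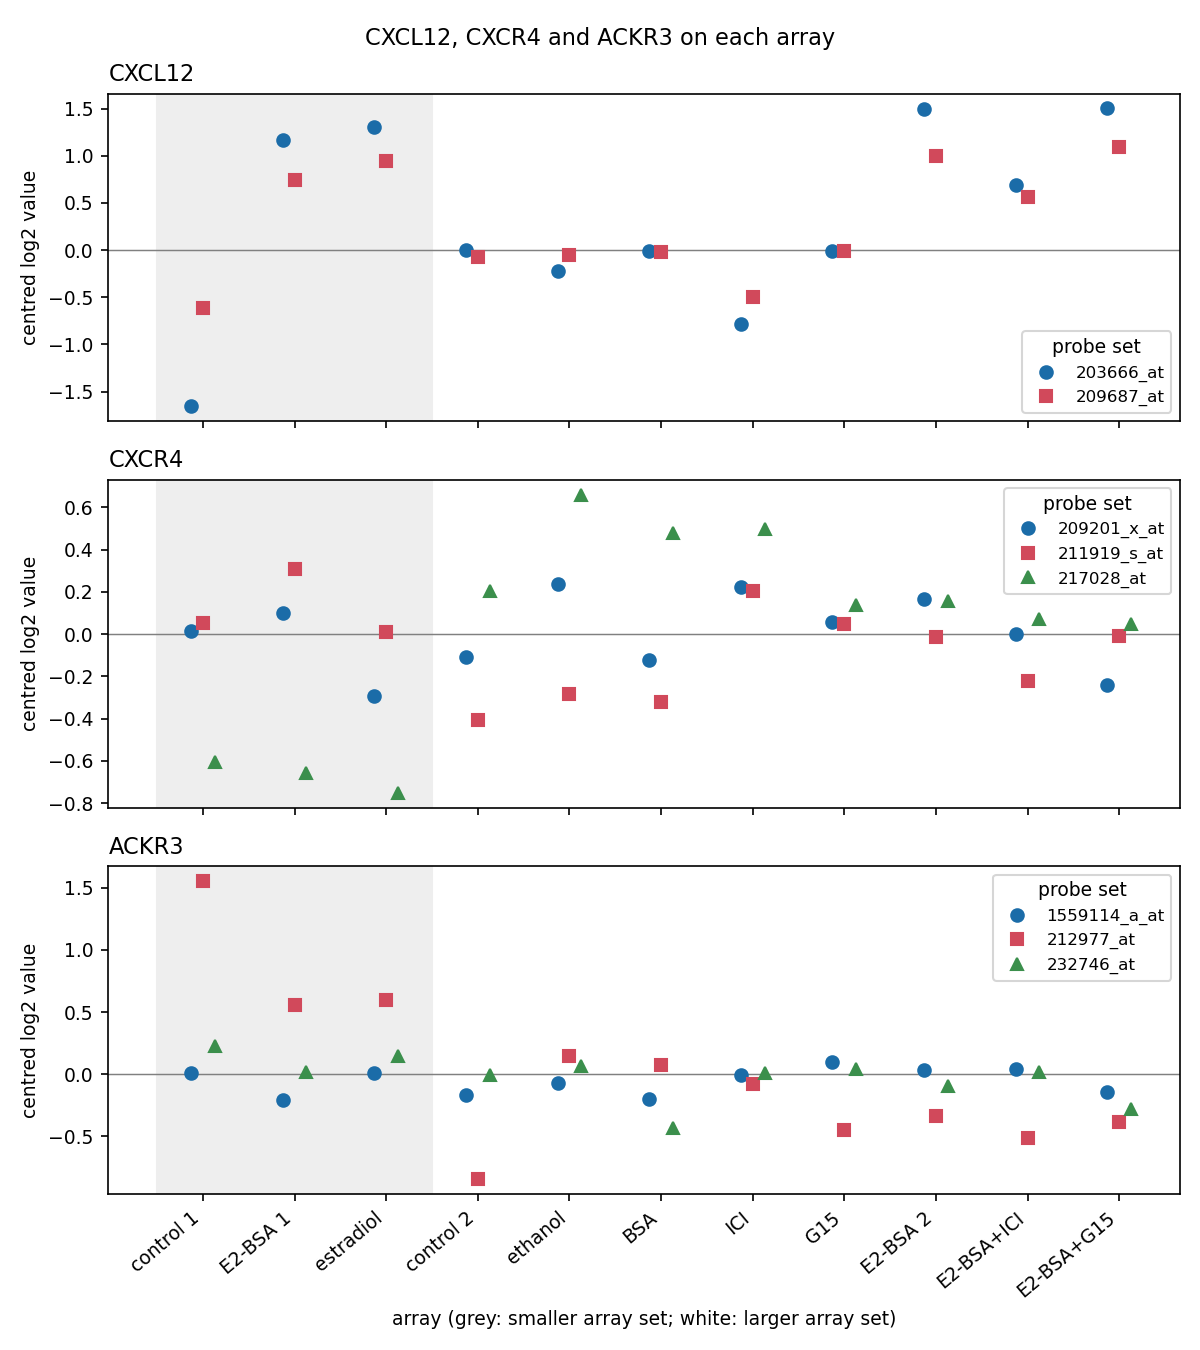
Centred log2 value of each probe set of CXCL12, CXCR4 and ACKR3 on each of the 11 arrays, 1 point per array, with the smaller array set on grey. CXCL12 runs from -1.65 to 1.50 at 203666_at and is high on every array with estradiol or E2-BSA, whereas CXCR4 217028_at and ACKR3 212977_at separate by array set. Of all probe sets, 10.2% shift more between the sets than the former and 0.815% more than the latter.

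Free estradiol and E2-BSA were both used at 1 µM, and on the arrays of the smaller set they gave CXCL12 values close to each other. Estradiol read 0.14 above E2-BSA 1 at 203666_at and 0.19 above it at 209687_at. The fitted difference was 0.47 ± 0.30 (SE) and 0.27 ± 0.17, given without a test because both treatments served to choose the gene. In limma no probe set of all those tested passed this comparison (0%), while 4644 had an unadjusted p under 0.05. Among the receptor probe sets, 1 of CXCR4 and none of ACKR3 were in that number. Under quantile normalization the CXCL12 sign turned, to -0.068 and -0.094. These values neither separate the free from the conjugated hormone nor show that the pair act alike on CXCL12.

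CXCL12 was lowest in the larger set on the ICI array. It read 0.78 below control 2 at 203666_at (1.72-fold) and 0.42 below at 209687_at, and also 0.78 and 0.48 below BSA. Of all probe sets, 0.103% had a greater absolute difference between ICI and control 2 than 203666_at, and 3.55% a greater one than 209687_at. Of the 206 other probe sets called higher after E2-BSA, 3 lay lower than 203666_at in this pair, and the median of the 206 was -0.09. The 206 were picked by E2-BSA minus control, which uses control 2, so nothing is read from the place of CXCL12 among them. In the limma fit, which draws on the control arrays that also served to choose the gene, ICI minus control was -0.45 ± 0.30 (SE; adjusted p = 0.96) at 203666_at and -0.35 ± 0.17 (adjusted p = 0.848) at 209687_at. Neither passed. The size depended on the processing: after quantile normalization it was -1.06 (adjusted p = 0.208) and -0.71 (adjusted p = 0.348), and without the block 0.045 (adjusted p = 0.999988) and -0.15 (adjusted p = 0.999988). No probe set of any gene passed (0%), and 3250 had an unadjusted p under 0.05.

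The G15, BSA and ethanol arrays stayed near control 2 at 203666_at. They differed from it by -0.01, -0.0078 and -0.22. G15 minus control called 0% of all probe sets in limma (2643 had an unadjusted p under 0.05), BSA minus control 0.0494% and ethanol minus control 0.287%. None of the 8 probe sets of the ligand and its receptors was among these calls.

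With ICI present, E2-BSA gave a step in CXCL12 of nearly the size seen without it, from a lower start to a lower end. E2-BSA with ICI exceeded ICI by 1.47 at 203666_at and 1.06 at 209687_at, beside 1.49 and 1.07 for E2-BSA 2 over control 2. The end point stood 0.81 and 0.44 below E2-BSA 2 and 0.69 and 0.63 above control 2. The other 206 probe sets called higher after E2-BSA had a median step of 0.45 with ICI and 0.70 without, and 2 of the 206 did not lie below CXCL12 with ICI. The 206 were picked by E2-BSA minus control, so the step without ICI is part of their selection and the step with ICI is not. The difference between these medians therefore cannot be read as an effect of ICI, nor set against the steps of CXCL12. With G15 the step was 1.51 and 1.10, and the end point differed from E2-BSA 2 by 0.0045 and 0.09.

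The fitted differences between antagonist backgrounds use the E2-BSA and control arrays for which CXCL12 was chosen, so they are given without a test. E2-BSA with ICI minus E2-BSA was -1.14 ± 0.30 (SE) at 203666_at and -0.51 ± 0.17 at 209687_at. E2-BSA with G15 minus E2-BSA was -0.33 ± 0.30 and 0.02 ± 0.17, and without the block the former was 0.17. In limma both comparisons called 0% of all probe sets, and 3797 and 4110 had an unadjusted p under 0.05. The response to E2-BSA with ICI minus that without it was -0.69 ± 0.39 at 203666_at and -0.16 ± 0.22 at 209687_at, in a comparison that called 0.011% of probe sets. For G15 the same difference was -0.65 ± 0.39 and -0.11 ± 0.22, with 0% called and 4377 of an unadjusted p under 0.05. Quantile normalization turned these 4 differences of response positive, from 0.058 to 0.29. All antagonist arrays lie in the larger set, and the wider step without antagonist lies in the smaller.

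**Figure D2:**
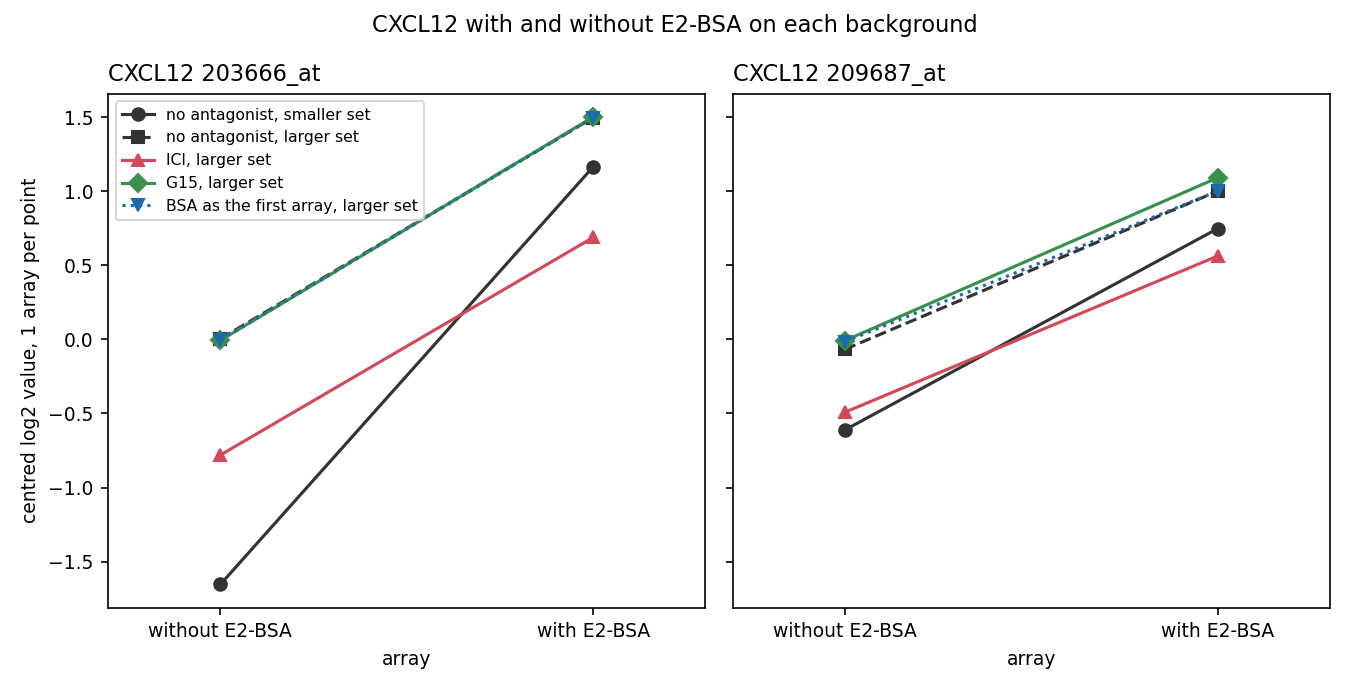
Centred log2 value of CXCL12 at its 2 probe sets without and with E2-BSA, 1 array per point, joined within a background and an array set. The lines of the larger set run nearly parallel, with steps of 1.49 (control 2), 1.47 (ICI), 1.51 (G15) and 1.50 (BSA) at 203666_at, and the smaller set steps by 2.82.

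CXCR4 passed no test in any comparison, and its 3 probe sets differed in pattern. At 217028_at the smaller set read -0.60 on control 1, -0.66 on E2-BSA 1 and -0.75 on estradiol, and the larger set from 0.05 on E2-BSA with G15 to 0.66 on ethanol. The sets did not overlap, and within them E2-BSA differed from control by -0.06 and -0.05. Over all probe sets, 10.2% had a greater mean shift between the sets. How many probe sets likewise did not overlap was not counted. At 211919_s_at control 2 was the lowest of all arrays, at -0.41, and E2-BSA 1 the highest, at 0.31. At 209201_x_at all values lay between -0.29 (estradiol) and 0.24 (ethanol). The suffixes s and x mark probe sets whose probes match several transcripts or may cross-hybridise.

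In the limma fit E2-BSA minus control was 0.18 ± 0.12 (SE; adjusted p = 0.725) at 209201_x_at, 0.32 ± 0.12 (adjusted p = 0.37) at 211919_s_at and -0.05 ± 0.12 (adjusted p = 0.954) at 217028_at. Estradiol minus control was -0.26 ± 0.16 (adjusted p = 0.678), -0.01 ± 0.16 (adjusted p = 0.993) and -0.14 ± 0.16 (adjusted p = 0.847) in the same order, and that of 211919_s_at was positive without the block and after quantile normalization. None of the 6 receptor probe sets passed after E2-BSA or after estradiol, where 0.657% and 0.167% of all probe sets were called. Under the antagonists 211919_s_at was at 0.57 ± 0.16 for ICI minus control (adjusted p = 0.559) and 0.42 ± 0.16 for G15 minus control (adjusted p = 0.953), both against controls that include its lowest array. Its response to E2-BSA with ICI minus that without was -0.75 ± 0.21 (adjusted p = 0.227). Set-centred correlations between the 3 CXCR4 probe sets over the 11 arrays were 0.52, 0.42 and -0.12, so they did not report 1 common pattern.

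ACKR3 at 212977_at moved in opposite directions in the 2 array sets. In the smaller set it read 1.55 on control 1, 0.55 on E2-BSA 1 and 0.60 on estradiol, so both hormone arrays lay lower, at -0.999 and -0.95 from control 1. In the larger set control 2 was the lowest array of all, at -0.84. E2-BSA 2 read -0.34, E2-BSA with ICI -0.51, E2-BSA with G15 -0.38, G15 -0.44, ICI -0.07, BSA 0.07 and ethanol 0.15. E2-BSA 2 was thus 0.50 above control 2 and, by -0.41, below BSA. E2-BSA with ICI differed from ICI by -0.44, and E2-BSA with G15 from G15 by 0.06. Arrays with and without E2-BSA overlapped in the larger set.

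No comparison of 212977_at passed. E2-BSA minus control was -0.25 ± 0.24 (SE; adjusted p = 0.844), estradiol minus control -0.58 ± 0.32 (adjusted p = 0.633) and E2-BSA minus BSA -0.79 ± 0.32 (unadjusted p = 0.0311, adjusted p = 0.713), where 0.152% of all probe sets were called. The sign of the first turned after quantile normalization (0.11), and those of the other two turned without the block (0.24 and 0.034). Ethanol minus control was 0.61 ± 0.32 (adjusted p = 0.776) and BSA minus control 0.54 ± 0.32 (adjusted p = 0.999928), both negative without the block and larger after quantile normalization (1.09 for ethanol, adjusted p = 0.306, and 1.001 for BSA, adjusted p = 0.376). Against control 2 alone, 212977_at stood 0.99 higher on ethanol and 0.92 higher on BSA. The latter was the highest rise of all probe sets in that pair of arrays, and 0.103% had a greater absolute difference. ACKR3 232746_at went the other way in the same pair, at -0.42, and its fitted BSA minus control was -0.45 ± 0.16.

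Control 2 was also lowest in the ACTB 5′ minus 3′ difference, which tracks RNA integrity. That difference was -0.37 on control 2, -0.26 on BSA, -0.08 to 0.00037 on the other 6 arrays of the larger set and 0.65 to 0.79 on the smaller set. ACKR3 differed by 2.39 between control 1 and control 2 and by 0.89 between E2-BSA 1 and E2-BSA 2, and 0.815% of all probe sets had a greater mean shift between the sets. The part of RNA quality in these ACKR3 values was not tested. The other ACKR3 probe sets were flatter. 1559114_a_at ran from -0.20 to 0.10 and 232746_at from -0.43 (BSA) to 0.23 (control 1), and their set-centred correlations with 212977_at were 0.12 and -0.02.

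**Figure D3:**
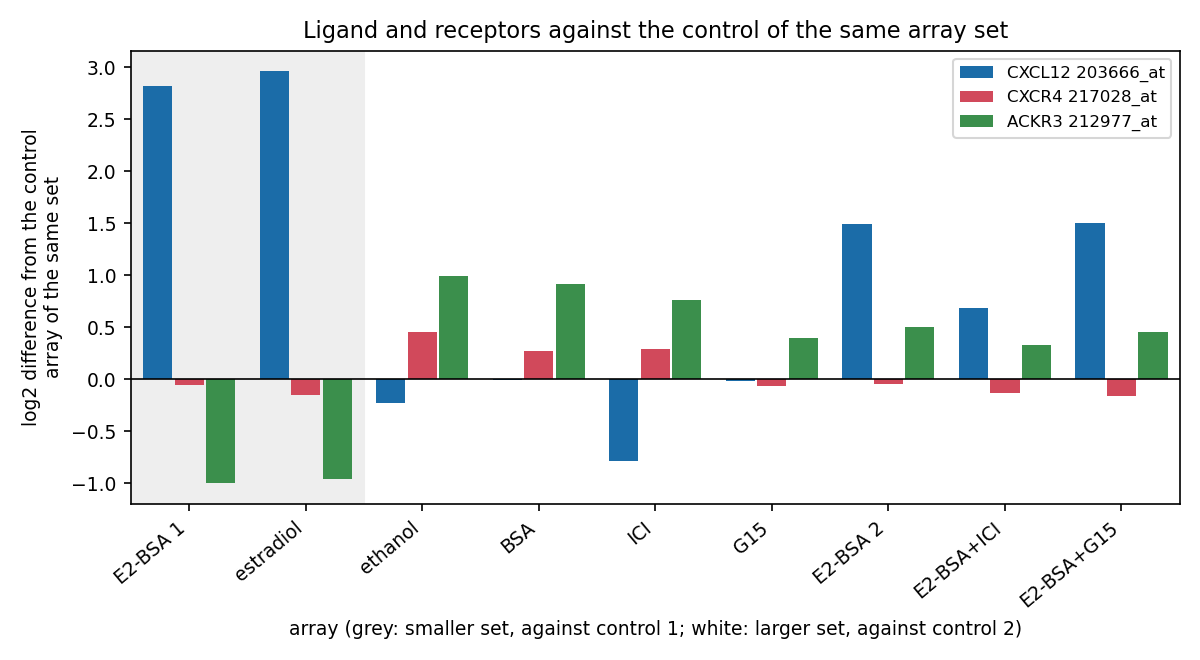
Log2 difference of each array from the control array of its own set, for the probe set of each gene with the widest set-centred spread; bars start at 0 and have no error because each is 1 array against 1. CXCL12 is higher on every array with hormone (0.69 to 2.96), CXCR4 stays between -0.15 and 0.45, and ACKR3 is negative in the smaller set and positive throughout the larger set.

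For the remaining comparisons the counts were low. E2-BSA with ICI minus ICI called 0% of all probe sets, and 3901 had an unadjusted p under 0.05. Of the 6 receptor probe sets, 2 of CXCR4 were among the 3901 (211919_s_at and 217028_at, at -0.43 and -0.42). E2-BSA with G15 minus G15 called 0.112% and E2-BSA over 3 backgrounds 0.244%. The number of probe sets called in the latter was 95 without ICI or without its combination, 2 without control 1 or E2-BSA 1, and 0 without control 2, E2-BSA 2, G15 or its combination. No receptor probe set was among them. CXCL12 had 1 call in the former and 2 in the latter, and nothing is read from these because the gene was chosen for this response.

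The wider pathway was followed through 7 gene lists, with 149 of 157 genes measured and 1 probe set per gene. In E2-BSA minus control 2 of them rose, 1 fell and the others did not pass. Over all 19775 genes taken in the same way 139 rose and 65 fell, with a median of 0.01. Among other ligands and partners, 1 of 12 rose. This was ADM, which encodes adrenomedullin, a peptide that ACKR3 also takes up, at 0.82 ± 0.12 (SE; limma adjusted p = 0.0101), with 0.95 in the smaller set and 0.69 in the larger. Its estradiol value was 0.69 (adjusted p = 0.209). CXCL11, the other chemokine that binds ACKR3, was at 0.17 (adjusted p = 0.739), CD74, a partner of CXCR4 in binding of MIF, at -0.18 (adjusted p = 0.711), and the list's median was -0.0073.

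Of 23 measured G proteins, kinases, arrestins and regulators of G protein signalling, 1 fell and 0 rose. GNAI1, an inhibitory G protein alpha subunit of the class through which CXCR4 signals, fell by 0.67 ± 0.12 (adjusted p = 0.0247) after E2-BSA, with -0.71 and -0.63 in the 2 sets, and fell by 1.04 ± 0.16 (adjusted p = 0.0229) after estradiol. ARRB1, which encodes a beta-arrestin, was at 0.48 (adjusted p = 0.137), and the receptor kinase genes GRK6 and GRK3 were at 0.23 (adjusted p = 0.758) and -0.34 (adjusted p = 0.345). The list's median was 0.03.

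None of 26 genes of downstream migration and survival signalling passed. JAK2 had the highest value, 0.43 (adjusted p = 0.234), followed by the Rac exchange factor gene PREX1 at 0.34 (adjusted p = 0.37), and STAT3 (-0.39, adjusted p = 0.246) and BCAR1 (-0.39, adjusted p = 0.24), a scaffold of focal adhesions, the lowest. None of 20 genes that handle CXCL12 outside the cell passed. Their highest values were those of the heparan sulfate carrier SDC2 (0.39, adjusted p = 0.312), of CD44 (0.34, adjusted p = 0.396) and of DPP4 (0.31, adjusted p = 0.436), the protease that inactivates CXCL12 by clipping its amino terminus. The sulfotransferase gene HS2ST1 was lowest, at -0.31 (adjusted p = 0.513).

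The other members of the chemokine family gave no call. None of 35 other chemokines passed, their values ran from -0.23 (CCL8) to 0.22 (CCL2), and the median was 0.02. None of 18 other chemokine receptors passed, with values from -0.37 (CCR2) to 0.16 (XCR1) and a median of -0.06. After estradiol none of the genes in either list passed. Among 15 regulators of CXCL12 or receptor transcription, 1 rose after either treatment. This was PGR, the progesterone receptor gene, at 0.90 ± 0.15 after E2-BSA (adjusted p = 0.0177) and 1.15 ± 0.20 after estradiol (adjusted p = 0.0476). FOXA1, a pioneer factor for estrogen receptor, was at -0.56 (adjusted p = 0.064), CEBPB at 0.37 (adjusted p = 0.364) and the hypoxia-inducible factor gene EPAS1 at 0.28 (adjusted p = 0.449).

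**Figure D4:**
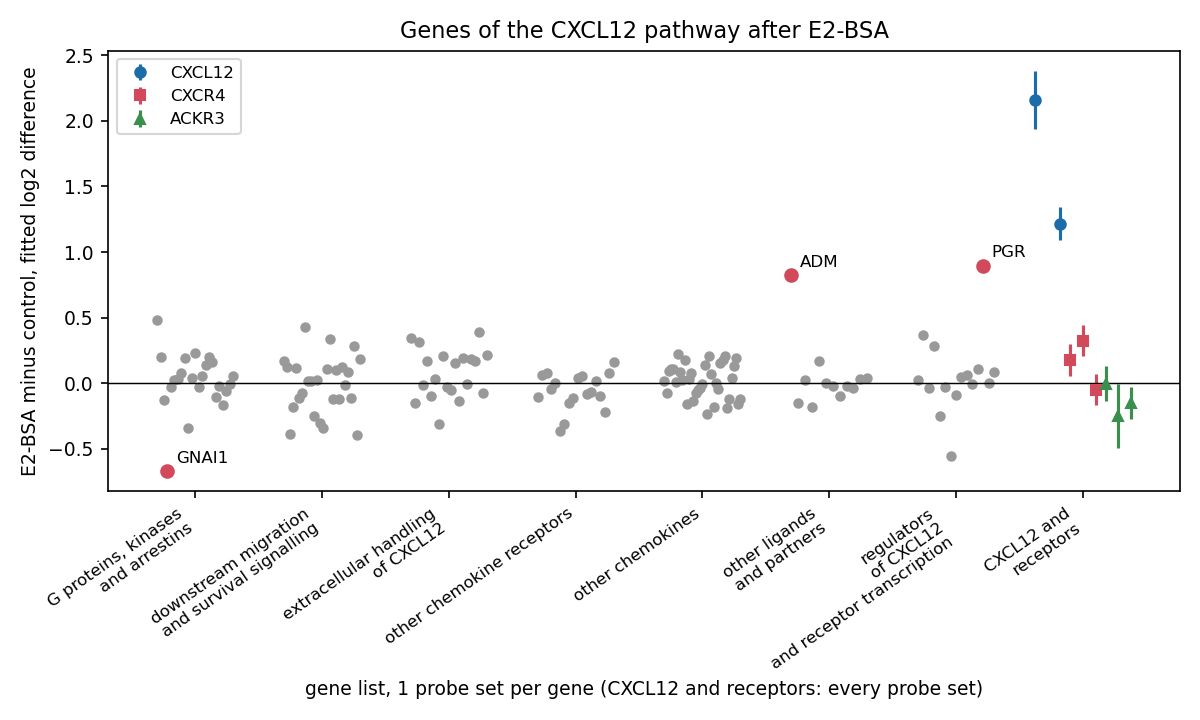
Fitted log2 difference between E2-BSA and control for each measured gene of the 7 lists, 1 point per gene, with genes that passed the limma test in red and named, and for every probe set of CXCL12, CXCR4 and ACKR3 with its standard error. ADM and PGR rose and GNAI1 fell, and the other chemokines lie between -0.23 and 0.22.

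Markers of cells that could bring CXCL12 into a culture were read beside it. Of 27 measured marker genes of stromal fibroblasts, leukocytes, endothelium and luminal epithelium, none passed after E2-BSA or estradiol. The 8 fibroblast markers averaged -0.10 to 0.21 on arrays with E2-BSA or estradiol and -0.07 to 0.20 on the other arrays, with the highest value of each on the smaller set. Their medians after E2-BSA and estradiol were 0.02 and -0.20.

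The genes most like CXCL12 were those with the highest Pearson r to 203666_at over the 11 arrays after removal of each set's mean, among 17112 genes at 1 probe set each. They were MYB, a transcription factor gene (r = 0.985), ASB13, a ubiquitin ligase adaptor gene (0.985), PYCR3 of proline synthesis (0.981), ADRA2A, an adrenergic receptor gene (0.975), MPPED2, a metallophosphoesterase gene (0.974), the potassium channel gene KCNK5 (0.972), SFXN2, which encodes a mitochondrial carrier (0.972), and AMD1 of polyamine synthesis (0.972). The lowest r belonged to HEXIM1, an inhibitor of transcription elongation (-0.960), SPTSSB of sphingolipid synthesis (-0.956), the interleukin receptor gene IL1R1 (-0.954) and the kinase gene PLK2 (-0.946). All these values share the same arrays, of which 5 carried hormone, so r mainly records the contrast between arrays with and without it.

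These genes differed in amplitude. MYB was higher by 2.12 on E2-BSA 1 and by 1.23 on E2-BSA 2, and ADRA2A by 2.24 and 1.58, beside 2.82 and 1.49 for CXCL12, whereas PYCR3 was higher by 0.47 and 0.18. With ICI present the step was 0.70 for MYB, 1.27 for ADRA2A, 1.33 for MPPED2 and 1.22 for KCNK5, beside 1.47 for CXCL12. On the ICI array alone MPPED2 stood at -0.50, KCNK5 at -0.47, ADRA2A at -0.45 and MYB at -0.15 against control 2, beside -0.78 for CXCL12.

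The receptors had other companions. Nearest to CXCR4 217028_at were BLZF1 (r = 0.959), DONSON (0.941), ADPRM (0.933) and YEATS4 (0.929), and nearest to ACKR3 212977_at were SELENOK (0.904), DDR2 (0.903), SOD1 (0.893) and AK6 (0.881). Between the members themselves, r of CXCL12 was -0.57 with CXCR4 217028_at and -0.66 with ACKR3 212977_at. Those receptor probe sets had an r of 0.67 with each other. No r with CXCL12 is given for the other receptor probe sets. Within CXCR4, 217028_at had an r of -0.12 with 211919_s_at and 0.52 with 209201_x_at. Within ACKR3, 212977_at had an r of 0.12 with 1559114_a_at and -0.02 with 232746_at. The values with CXCL12 therefore describe single probe sets and not the receptor genes as a whole.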

How the data were processed

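Total RNA of 11 T47D samples was hybridised to HG-U133 Plus 2 arrays, per the labels' protocols. The authors deposited a processed table of 54675 probe sets, centred per probe set and taken here as log2. How it was summarised and normalized, and the log base, are not given in the sources used here. Array medians lay within 0.0105 of 0 as deposited. The 62 control probe sets were left out, leaving 54613, of which 41091 had 1 symbol (platform annotation, 41037 updated through RefSeq).

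Array sets were the 2 clusters of array-wide correlation. A group-means model with the array set as a block was fitted over all 11 arrays (limma 3.58.1, R 4.3.3; lmFit, eBayes; 1 residual and 11.3 prior degrees of freedom), and E2-BSA over 3 backgrounds to 8 arrays (3 residual). Calls were an adjusted p under 0.05 (Benjamini-Hochberg over all probe sets). Single-array groups were assumed to vary like the replicated ones. The title numbers of control and E2-BSA coincide with the sets. Control 1 minus control 2 and E2-BSA 1 minus E2-BSA 2 correlated at 0.857 over probe sets. Gene lists used the probe set with the largest set-centred SD per gene. Named genes were every probe set of the 3 genes, list genes that passed or had the highest or lowest values, and the genes highest or lowest by r, 8 and 4 for CXCL12 and 4 highest for each receptor. The members, lists and design were chosen with earlier results of these data known. No expression filter could be applied to centred values.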

Additional observations from a re-analysis of the deposited data

Results flagged for a closer look

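ACKR3 at 212977_at differed by -0.999 between E2-BSA 1 and control 1 and by 0.50 between E2-BSA 2 and control 2, opposite directions in the 2 array sets, and ACKR3 at 1559114_a_at by -0.21 and 0.20. Each is 1 array against 1, and the difference between the sets was not tested. CXCL12 and the CXCR4 probe sets had the same sign in both sets.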

How the results depend on the processing

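Leaving the array set out of the model ("no replicate block") reduced the calls to 0 in every comparison that had any: E2-BSA minus control, estradiol minus control, E2-BSA minus BSA, BSA minus control, ethanol minus control, E2-BSA+G15 minus G15, the response with ICI minus without, and E2-BSA over 3 backgrounds. Quantile normalization gave 0 in these, except 12 for ethanol and 1 for E2-BSA over 3 backgrounds. With probe sets of 1 symbol alone, E2-BSA+G15 minus G15 called 37 (61 with all) and the response with ICI 0 (6 with all). E2-BSA over 3 backgrounds called 2 in the larger set alone and 0 to 95 without 1 array, with CXCL12 203666_at at 1.49 to 1.94. The replicate block on the 4 control and E2-BSA arrays called the same number, 359. That outcome was fixed in advance, because groups of 1 array leave no residual, so it is no check. For E2-BSA over 3 backgrounds, the larger set alone and the runs without control 1 or E2-BSA 1 are 1 and the same fit. In the group-means model leaving out a control or E2-BSA array leaves no residual degrees of freedom, so that was not run.

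Signs turned without the block for ACKR3 212977_at (BSA minus control -0.28, ethanol minus control -0.21, estradiol minus control 0.24, E2-BSA minus BSA 0.034), for CXCL12 203666_at (ICI minus control 0.045, estradiol minus E2-BSA -0.026, E2-BSA+G15 minus E2-BSA 0.17) and for CXCR4 211919_s_at (estradiol minus control 0.19). They turned after quantile normalization for CXCL12 203666_at and 209687_at (estradiol minus E2-BSA -0.068 and -0.094, response with ICI 0.092 and 0.25, response with G15 0.058 and 0.29), ACKR3 212977_at (E2-BSA minus control 0.11) and CXCR4 211919_s_at (estradiol minus control 0.094). The cause was not tested. ADM, PGR and GNAI1 kept their direction in every alternative run, and none passed without the block or after quantile normalization. In E2-BSA over 3 backgrounds ADM passed (0.73, limma adjusted p = 0.0266). PGR (0.73) and GNAI1 (-0.53) did not pass there (limma adjusted p = 0.081 for each). PGR after estradiol had adjusted p = 0.0585 with robust limma eBayes. Quantile normalization also moved PGR after estradiol from 1.15 to 0.74. Signal over background cannot be judged from centred values.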
